A study of Mus musculus with 7 samples.

Results

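The genes described here are 34 genes that fold, export and destroy proteins in the endoplasmic reticulum (ER) or sense the load of unfolded proteins there. They were chosen by symbol from a list of ER chaperones, unfolded protein response genes and ER-associated degradation genes. A gene was kept where its mean level over the 7 libraries was at least 1 FPKM (fragments mapped per kilobase of a transcript, relative to the library's mapped total). All 34 listed genes were found, and all passed that minimum, out of 17920 genes in the table and 11378 that passed it. By role they comprised 9 luminal chaperones and co-chaperones, 6 lectin chaperones and disulfide isomerases, 4 genes for the stress sensors and XBP1, 10 genes of ER-associated degradation, and 5 genes of translocation and signal peptide cleavage.

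RNA was sequenced from the spleen of C57BL/6 mice aged 8 weeks, all of which had received an intraperitoneal injection of lipopolysaccharide (LPS) at 20 mg/kg. LPS is the outer membrane component of Gram-negative bacteria that triggers endotoxin shock. The mice were wild type or lacked GdX (UBL4A), an X-linked ubiquitin-like protein of the complex that delivers tail-anchored proteins to the ER membrane. One label writes the mutant genotype as GdX-/- and another as GdX-/Y. The groups were wild-type spleen at 90 min (2 libraries), GdX-deficient spleen at 90 min (2), wild-type spleen at 6 h (2) and GdX-deficient spleen at 6 h (1), and the series names 4 wild-type and 3 mutant mice. The labels call the material splenocytes, while the protocol describes the whole organ being crushed. Spleen before LPS was not analysed here.

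The ER folds secreted and membrane proteins with the HSP70 protein BiP (Hspa5), the HSP90 protein GRP94 (Hsp90b1), the lectin chaperones and a family of disulfide isomerases. When unfolded proteins accumulate, the sensors IRE1 (Ern1), ATF6 and PERK (Eif2ak3) signal to the nucleus: IRE1 splices the RNA of XBP1, ATF6 is cut to release a transcription factor, and PERK slows translation and raises ATF4 and CHOP. XBP1 and ATF6 act on chaperone and degradation genes, and in the spleen the branch of IRE1 and XBP1 is best known for its need in antibody-secreting plasma cells.

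The element through which ATF6 and XBP1 act on chaperone promoters is the ER stress response element, ERSE. It was searched as CCAAT, any 9 bases, CCACG on both strands of the 250 bases before each start in the RefSeq promoter table (GRCm38.p6), which held 28 of the 34 genes. Derl1, Manf, Sec61a1, Sec11c, Hyou1 and Atf6 were not matched. For Derl3, Dnajc3, Herpud1, Os9, Pdia4 and Xbp1 the bases just after the start were not found in a GENCODE transcript of the gene. ERSE stood in the promoters of 9 of the 28 genes (32.1%), against 35 of 27025 genes of the table (0.13%). These were Calr, Canx, Creld2, Derl3, Dnajc3, Hsp90b1, Hspa5, Pdia6 and Syvn1. ERSE-II (ATTGG, any base, CCACG) stood in that of Herpud1 alone among these 28 genes, against 0.037% of genes in the table. The UPRE core (TGACGTGG) stood in that of Vcp alone among them, against 0.603%. The ATF4 element (TGATG, any base, AAT) was found in 0 of the 28, against 0.91%. A match is a description of the letters and not evidence of binding. The 60-base stretches around 7 of the matches are shown for the genes that the results below turn on, each 5′ to 3′ on the strand of the gene, with the matched element in capitals. An element that begins with CGTGG lies on the opposite strand.
Hspa5, BiP, chr2:34772005-34772064, plus strand: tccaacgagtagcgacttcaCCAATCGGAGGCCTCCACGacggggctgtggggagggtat
Hsp90b1, GRP94, chr10:86705512-86705571, minus strand: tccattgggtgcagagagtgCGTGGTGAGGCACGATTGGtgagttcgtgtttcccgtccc
Calr, calreticulin, chr8:84847054-84847113, minus strand: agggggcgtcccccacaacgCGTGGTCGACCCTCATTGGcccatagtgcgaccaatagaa
Creld2, chr15:88819500-88819559, plus strand: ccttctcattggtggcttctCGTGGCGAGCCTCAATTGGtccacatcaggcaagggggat
Dnajc3, the co-chaperone P58IPK, chr14:118937807-118937866, plus strand: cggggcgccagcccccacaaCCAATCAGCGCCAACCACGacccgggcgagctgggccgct
Syvn1, the ubiquitin ligase HRD1, chr19:6046512-6046571, plus strand: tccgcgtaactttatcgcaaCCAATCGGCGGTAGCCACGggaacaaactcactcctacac
Herpud1, HERP, ERSE-II, chr8:94386357-94386416, plus strand: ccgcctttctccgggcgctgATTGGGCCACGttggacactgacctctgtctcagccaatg

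The libraries were read to a similar depth, estimated from the low values at 18400000 to 20200000 fragments, but differed in make-up. Globin genes took 7.7% to 30.9% of a library's FPKM sum, so the level of every other gene shifts with them. Ubl4a, the targeted gene, stood at 5.62 and 7.50 FPKM in wild type at 90 min, 4.03 and 5.69 in GdX-deficient spleen at 90 min, 11.9 and 14.0 in wild type at 6 h and 10.6 in the GdX-deficient 6 h library. Its RNA was therefore present in every library labelled deficient and overlapped between genotypes at 90 min. Gm44504, named after its values were seen, stood at 0.66 to 1.86 FPKM in the 3 libraries labelled deficient and at 14.5 to 51.1 in the 4 labelled wild type. Markers of B cells, T cells and red pulp macrophages were expressed in every library, and the 17 exocrine pancreas markers in the table summed to at most 13.7 FPKM. In bulk RNA, fewer cells of a type and less RNA per cell cannot be told apart. The p-values measure only the spread between these libraries.

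The levels spanned more than 2 orders of magnitude between genes on the per-length FPKM scale. Hspa5 was the most abundant by its mean over the 7 libraries, 371 FPKM, followed by Calr at 256 and Hsp90b1 at 231. These 3 chaperones carried most of the summed FPKM of the 2 chaperone groups in every library. The isomerases stood lower, from 54.2 FPKM for Pdia4 to 122 for Pdia3. Among the translocation genes Sec61b, a small subunit of the Sec61 channel, had the highest mean, 166 FPKM, and Ssr1, a subunit of the translocon-associated complex, had the lowest, 25.4. The degradation genes ran from 6.89 FPKM for Derl3, a channel-forming derlin, to 109.6 for Vcp, the ATPase that pulls substrates into the cytosol. The RNAs of the 3 sensors were scarce: Atf6 had a mean of 11.2 FPKM, Eif2ak3 of 5.03 and Ern1 of 1.51, whereas Xbp1 RNA, the target of IRE1, stood at 54.6. The lowest value in the set was Ern1 in 1 wild-type library at 6 h, 0.33 FPKM, which corresponds to about 46.3 fragments at the estimated depth.

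**Figure D1:**
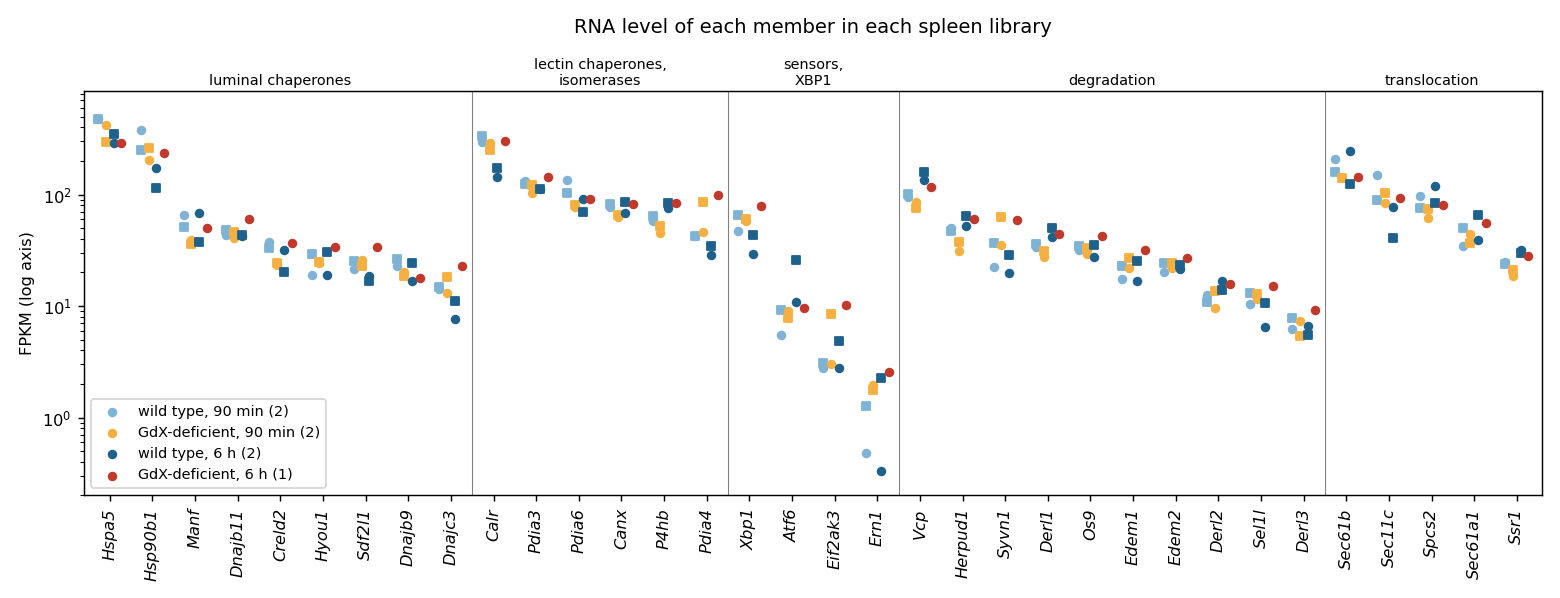
FPKM (log axis) of each of the 34 genes in each of the 7 libraries, ordered by role and by mean level. Each point is 1 library, coloured by group, with replicate 1 as a circle and replicate 2 as a square; BiP, calreticulin and GRP94 lie between 114 and 477 FPKM, and Ern1 between 0.33 and 2.54.

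At 90 min none of the 34 genes passed the test between genotypes, and on the deposited FPKM scale, though less so once globin genes were removed, most chaperones stood at lower values in GdX-deficient than in wild-type spleen. Hspa5 stood at 473 and 477 FPKM in the wild-type libraries and at 422 and 296 in the GdX-deficient ones. Calr stood at 294 and 338 in wild type and at 292 and 249 in GdX-deficient spleen. Both pairs were separate, for Calr by a narrow margin. Pdia6, an isomerase that binds BiP, stood at 135 and 104 against 76.7 and 80.1, also without overlap. With globin genes removed Hspa5 and Calr were no longer lower without overlap, and with quantile normalization Calr was not either.

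Manf, Creld2 and Herpud1, taken from the genes with the smallest p, were ordered alike at 90 min. Manf, a secreted survival factor, stood at 65.3 and 51.0 FPKM in wild type and at 39.0 and 35.8 in GdX-deficient spleen. Creld2, an ER stress-inducible protein of the secretory pathway, stood at 37.6 and 32.9 against 23.6 and 24.3. Herpud1, which organises the HRD1 degradation complex, stood at 49.7 and 47.1 against 31.2 and 37.4. In each of these 3 genes both GdX-deficient libraries lay below both wild-type libraries.

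At 90 min 12 of the 34 genes had a positive difference, most of them with overlap. Pdia4, the isomerase ERp72, stood at 42.5 and 42.4 FPKM in wild type and at 46.6 and 85.5 in GdX-deficient spleen. Ern1 stood at 0.48 and 1.28 against 1.96 and 1.75. Syvn1 stood at 22.2 and 36.8 against 35.3 and 62.9. Pdia4 and Ern1 did not overlap between genotypes, while Syvn1 did, and the spread within the GdX-deficient pair was wide for Pdia4 and Syvn1. GdX-deficient replicate 2, which held the higher value of both, stood apart in its cell markers. Its neutrophil markers summed to 4884 FPKM against 819 to 1281 in the other 90 min libraries, and its B-cell markers to 2456 against 1448 to 1741. Red cell precursor markers summed to 1171 and 1370 in GdX-deficient spleen and to 627 and 706 in wild type. The part of these cells was not tested. Without that replicate the log2 difference was 0.13 for Pdia4 and 0.29 for Syvn1, and 0 of the 34 genes were called, beside 0.0176% of all genes.

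In limma's test with Benjamini-Hochberg adjustment over all genes, 0 of the 34 were called between genotypes at 90 min, beside 0.0176% of all genes, and 1 of the 34 had an unadjusted p below 0.05, as did 862 of the 11378 genes tested. The 6 genes with the smallest p all had an adjusted p of 0.621. Their log2 differences were -0.59 ± 0.26 (SE) for Pdia6, -0.49 ± 0.25 for Herpud1, -0.61 ± 0.31 for Manf, 0.70 ± 0.37 for Syvn1, -0.54 ± 0.28 for Creld2 and 0.56 ± 0.31 for Pdia4. Without overlap, 15 genes were lower, where 23.4% of all genes were, and 2 were higher, where 24.1% were. The median difference was -0.15 over the 34 genes and 0.07 over all genes tested. All 5 translocation genes and 11 of the 15 chaperone and isomerase genes had a negative difference, and all 4 sensor and XBP1 genes a positive one. This order depended on the scaling: with globin genes taken out of the FPKM sum, the median of all genes moved to 0.25 and that of the 34 to 0.04, and 5 genes were lower and 5 higher without overlap, where 12.7% and 41.4% of all genes were. With quantile normalization 11 were lower and 5 higher, where 25.5% and 26.2% of all genes were.

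Between 90 min and 6 h in wild-type spleen, calreticulin RNA fell, and Hsp90b1 and Hspa5 stood at lower values, while several degradation genes stood higher. Canx and Hyou1 overlapped between the times. Calr, the lectin chaperone that holds newly made glycoproteins, went from 294 and 338 FPKM at 90 min to 144 and 173 at 6 h. Hsp90b1, the chaperone of integrins and Toll-like receptors, stood at 381 and 250 at 90 min and at 173 and 114 at 6 h. Hspa5 stood at 473 and 477 at 90 min and at 292 and 352 at 6 h. In all 3 genes both 6 h libraries lay below both 90 min libraries.

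Smaller members of the folding machinery were ordered alike. Dnajc3, which binds unfolded chains for BiP, stood at 14.3 and 14.7 FPKM at 90 min and at 7.67 and 11.0 at 6 h. Pdia4 stood at 42.5 and 42.4 at 90 min and at 28.6 and 34.7 at 6 h. Xbp1 stood at 47.2 and 65.1 at 90 min and at 29.4 and 43.4 at 6 h. Sec11c, a catalytic subunit of the signal peptidase, stood at 149 and 90.0 at 90 min and at 77.3 and 40.9 at 6 h. None of these pairs overlapped in time. For Dnajc3, Xbp1 and Sec11c the gap between the 2 libraries at 6 h was larger than the gap between the nearest libraries of different times.

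Atf6, Vcp and P4hb were ordered the other way in wild type. Atf6 stood at 5.48 and 9.24 FPKM at 90 min and at 10.8 and 26.1 at 6 h. Vcp stood at 94.7 and 101 at 90 min and at 135 and 159 at 6 h. P4hb, the archetypal disulfide isomerase, stood at 57.5 and 63.7 at 90 min and at 75.0 and 83.8 at 6 h. For Atf6 the gap between the 2 libraries at 6 h was larger than the gap between the times.

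Of the 34 genes, limma called 1 over time in wild type, Calr, beside 10.7% of all genes. At an unadjusted p below 0.05 there were 5 of the 34, against 3262 of all 11378 genes, a smaller share. The log2 difference of Calr was -0.99 ± 0.25 (SE, adjusted p = 0.0376). Hsp90b1 followed at -1.13 ± 0.32 (adjusted p = 0.0523), Sec11c at -1.03 ± 0.36 (0.0968), Atf6 at 1.13 ± 0.42 (0.113), Vcp at 0.58 ± 0.24 (0.149) and Xbp1 at -0.62 ± 0.28 (0.187), all adjusted p from limma. The call on Calr was lost without wild-type 90 min replicate 1 (adjusted p = 0.152) or 2 (0.258), GdX-deficient 90 min replicate 1 (0.0559) or 2 (0.056), or wild-type 6 h replicate 1 (0.071). It was also lost with no filter on low values (0.063) and in a limma fit of the 4 libraries alone (0.0537). Without overlap, 11 genes were lower at 6 h, where 27.6% of all genes were, and 7 were higher, where 30.3% were. The 11 were Calr, Creld2, Dnajc3, Hsp90b1, Hspa5, Pdia3, Pdia4, Pdia6, Sdf2l1, Sec11c and Xbp1, and the 7 were Atf6, Derl1, Derl2, Herpud1, P4hb, Ssr1 and Vcp. Quantile normalization gave 15 lower and 6 higher, where 28.6% and 33.6% of all genes were. Removal of globin genes gave 11 lower and 3 higher, where 27.7% and 21.3% were.

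The roles differed in the direction of these wild-type time differences. Of the 9 luminal chaperones, 8 had a negative difference, with a median of -0.37, and of the 6 lectin chaperones and isomerases 5 did, with a median of -0.30. The 10 degradation genes had a median of 0.03, with 6 positive, and all genes tested had a median of 0.05. All 9 genes with an ERSE in the promoter were negative, from -1.13 to -0.07 with a median of -0.56, and remained so with quantile normalization and with globin genes removed. Of the 19 genes whose promoter held none, 10 were positive and the median was 0.00. Markers of antibody-producing cells moved with these genes. The 12 plasma cell and plasmablast markers, all in the table, summed to 719 and 761 FPKM in wild type at 90 min and to 478 and 483 at 6 h. None of these 12 markers was at 0 in any library. The lower sum came mainly from Jchain, Mzb1, Pou2af1 and Irf4, while Tnfrsf13b went from 27.9 and 21.9 FPKM up to 96.6 and 105, and Cd38 from 45.0 and 44.2 up to 64.7 and 69.3. The 10 B-cell markers summed to 1659 to 1741 FPKM at 90 min and to 560 to 632 at 6 h. T-cell markers (9) went from 430 to 506 down to 200 to 244, and red pulp macrophage markers (10) from 1362 to 1401 down to 730 to 879. Red cell precursor markers (9) went from 627 and 706 down to 216 and 294, while neutrophil markers (10) overlapped between the times, at 819 to 1281 and 806 to 1165. The part of these cells in the chaperone differences was not tested.

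**Figure D2:**
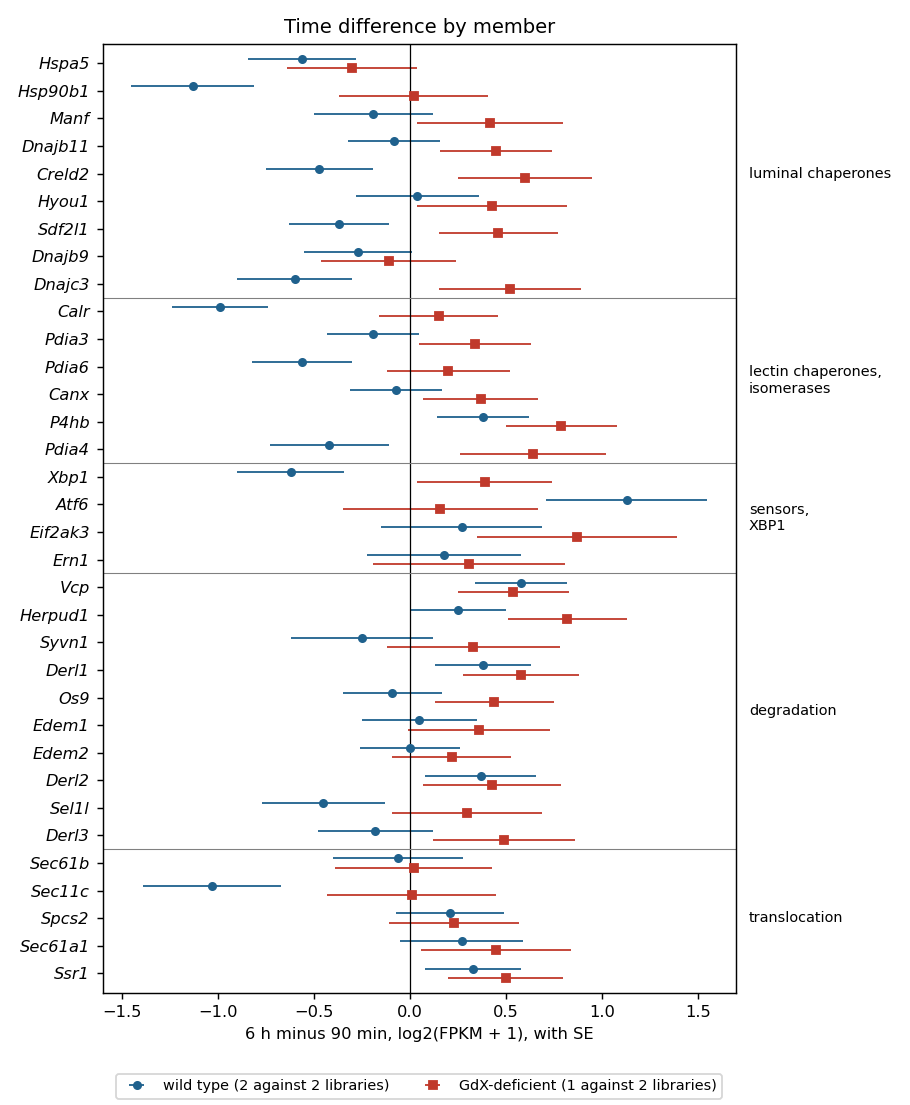
Difference in log2(FPKM + 1) between 6 h and 90 min for each of the 34 genes, grouped by role, in wild type (blue circles, 2 against 2 libraries) and in GdX-deficient spleen (red squares, 1 against 2), with limma's standard errors as bars. In wild type 13 of the 15 chaperones and isomerases lie below 0, and in GdX-deficient spleen 13 of the 15 lie above it. Of the 11378 genes tested, 5337 have a difference below 0 in wild type and 8542 one above it in GdX-deficient spleen.

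The PERK branch of the response was ordered against the chaperones over the same interval in wild type. Of 14 tested genes of the ATF4 and CHOP programme, 8 rose and 1 fell by limma between 90 min and 6 h, where limma called 10.7% of all genes in either direction, and the list median was 1.45. Trib3, a pseudokinase induced by CHOP, stood at 0.63 and 0.70 FPKM at 90 min and at 51.1 and 52.8 at 6 h (log2 difference 4.99 ± 0.27, limma adjusted p = 0.000147). Eif4ebp1, a translation repressor, stood at 17.3 and 19.6 at 90 min and at 138 and 151 at 6 h (2.90 ± 0.25, adjusted p = 0.000582). Chac1, which degrades glutathione, stood at 0.54 and 0.56 at 90 min and at 10.6 and 20.3 at 6 h (3.34 ± 0.32, adjusted p = 0.00105). The other 5 that rose were Atf4, Ddit3, Asns, Bbc3 and Sesn2, named after their values were seen. Ddit3, which encodes CHOP, stood at 14.7 and 14.4 FPKM at 90 min and at 68.9 and 57.5 at 6 h. The gene that fell was Ppp1r15a, the phosphatase subunit GADD34, named after its values were seen, with a log2 difference of -1.48 (limma adjusted p = 0.0342). The count of 8 became 5 with no filter, with globin genes removed or without wild-type 90 min replicate 1, in fits that called 3.54%, 6.22% and 3.96% of all genes. The RNA of the sensor itself, Eif2ak3, stood at 2.77 and 3.06 FPKM at 90 min and at 2.79 and 4.86 at 6 h, and the times overlapped. ATF4 is known to be raised by other kinases as well as by PERK.

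At 6 h the single GdX-deficient library held more RNA of several chaperones and of Xbp1 than either wild-type library, and less of some genes of the ATF4 programme. Pdia4 had a value of 98.9 FPKM in the GdX-deficient library and of 28.6 and 34.7 in wild type. Calr stood at 300.2 against 144 and 173. Hsp90b1 stood at 235 against 173 and 114. Dnajc3 stood at 22.7 against 7.67 and 11.0.

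Xbp1 and some of the degradation and co-chaperone genes were ordered in the same way, whereas Herpud1, Derl1, Derl2 and Dnajb9 overlapped between genotypes. Xbp1 had a value of 78.2 FPKM in the GdX-deficient library and of 29.4 and 43.4 in wild type. Syvn1 stood at 59.6 against 19.7 and 29.0. Sel1l, the adaptor of HRD1, stood at 15.3 against 6.45 and 10.8. Sdf2l1, a partner of BiP, stood at 33.8 against 18.7 and 16.9. In these genes the GdX-deficient value lay clear of the wild-type pair.

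BiP itself was not among them. Hspa5 had a value of 287 FPKM there, just under the wild-type values of 292 and 352. Eif2ak3 stood at 10.3 against 2.79 and 4.86, and Ern1 at 2.54 against 0.33 and 2.26. Atf6 stood at 9.56 against 10.8 and 26.1. The 3 sensors thus had no common order between genotypes, since Eif2ak3 and Ern1 stood above the wild-type pair and Atf6 below it.

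For the comparison of genotypes at 6 h the spread in limma comes from the 3 groups of 2 libraries, and the lone GdX-deficient library is assumed to vary like them. None of the 34 genes (0) was called, beside 3.96% of all genes. At an unadjusted p below 0.05 there were 7 of the 34, against 3233 of all 11378 genes, again a smaller share. Pdia4 came closest, with a log2 difference of 1.62 ± 0.38 (SE) and a limma adjusted p of 0.0502. Dnajc3 followed at 1.21 ± 0.37 (adjusted p = 0.0821), Xbp1 at 1.11 ± 0.35 (0.0889), Calr at 0.92 ± 0.31 (0.10), Syvn1 at 1.28 ± 0.45 (0.108) and Sdf2l1 at 0.89 ± 0.31 (0.11), all adjusted p from limma. With any 1 of the 6 other libraries left out, the log2 difference of Pdia4 ran from 1.48 to 1.75. Pdia4 was not called with a pseudocount of 0.1, no filter, a filter at 5 FPKM, quantile normalization or globin genes removed. With a replicate block limma called 6 of the 34 (Dnajc3, Eif2ak3, Pdia4, Sel1l, Syvn1 and Xbp1), beside 29.7% of all genes. With the GdX-deficient 90 min numbers crossed in that block it called 0, beside 0.387%. Without wild-type 6 h replicate 2 the count was 7, made up of Calr, Dnajc3, Eif2ak3, Ern1, Pdia4, Syvn1 and Xbp1, in a fit that called 26.7% of all genes.

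Without overlap between genotypes at 6 h, 20 genes were higher in the GdX-deficient library, where 54.9% of all genes were, and 5 were lower, where 25.3% were. On the deposited scale the share of the 34 that were higher, 20 genes, is thus close to that of the whole table. The 5 lower genes were Atf6, Hspa5, Spcs2, Ssr1 and Vcp. The median difference was 0.40 over the 34 genes and 0.32 over all genes. Quantile normalization brought the median of all genes to -0.02 and left that of the 34 at 0.33, with 21 higher and 3 lower, where 39.0% and 40.1% of all genes were. Removal of globin genes brought the medians to 0.55 and 0.67, with 26 higher and 0 lower, where 63.4% and 16% of all genes were, so that no gene of the 34 lay below wild type without overlap on that scale. Hspa5 had a positive difference under both of these scalings. On the deposited scale, 8 of the 9 genes with an ERSE were positive, with a median of 0.54. Of the 19 without, 14 were positive with a median of 0.35, and of all 11378 genes tested 7536 were positive. The B-cell markers summed to 2093 FPKM in the GdX-deficient 6 h library and to 560 and 632 in wild type, and the plasma cell markers to 689 against 478 and 483. The T-cell markers summed to 394 FPKM against 200 to 244, the red pulp markers to 1273 against 730 to 879, the neutrophil markers to 2648 against 806 to 1165 and the red cell precursor markers to 690 against 216 to 294. Whether these cells carry the higher chaperone values was not tested.

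**Figure D3:**
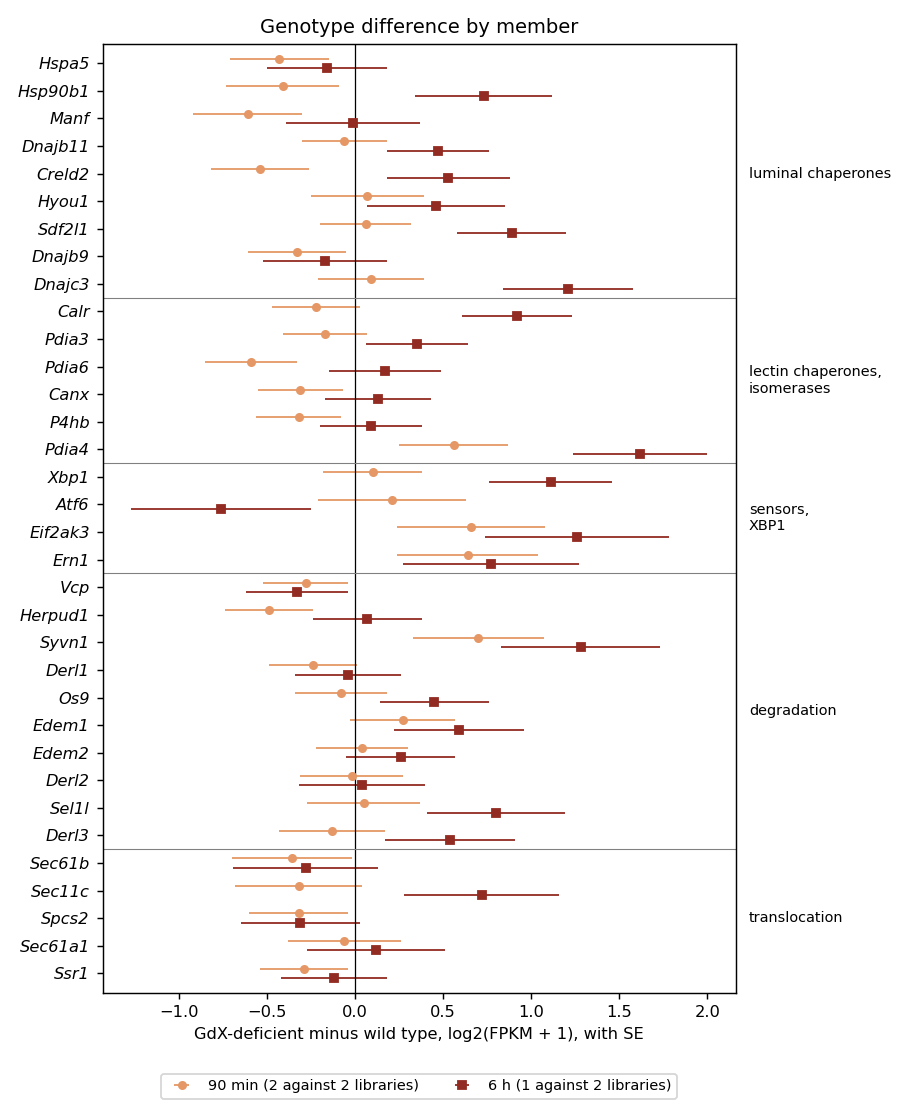
Difference in log2(FPKM + 1) between GdX-deficient and wild-type spleen for each of the 34 genes, grouped by role, at 90 min (2 against 2 libraries) and at 6 h (1 against 2), with limma's standard errors as bars. At 90 min 22 of the 34 genes lie below 0 and 12 above it (18 above it with globin genes removed), and at 6 h 25 of the 34 lie above it. Of the 11378 genes tested, 6430 have a difference above 0 at 90 min and 7536 at 6 h.

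Some genes of the ATF4 programme were lower in the single GdX-deficient library at 6 h than in wild type. At 90 min limma had called 0 of its 14 tested genes between genotypes, beside 0.0176% of all genes. At an unadjusted p below 0.05 there were 3, against 862 of all 11378 genes. At 6 h, 6 of the 14 were called lower and 0 higher in the GdX-deficient library, where limma called 3.96% of all genes in either direction, and the list median was -1.35. Trib3 stood at 3.27 FPKM against 51.1 and 52.8 in wild type (log2 difference -3.63 ± 0.34, limma adjusted p = 0.0031). Chac1 stood at 1.54 against 10.6 and 20.3 (-2.63 ± 0.39, adjusted p = 0.0163), and Eif4ebp1 at 38.2 against 138 and 151 (-1.89 ± 0.30, adjusted p = 0.0188). The call of Chac1 was lost with no filter (adjusted p = 0.0713) and that of Eif4ebp1 with globin genes removed (0.0537). Both were lost with the crossed replicate block, at 0.0555 for Chac1 and 0.0547 for Eif4ebp1. The count of 6 became 2 with no filter and with globin genes removed, in fits that called 0.502% and 2.24% of all genes, and 1 with the crossed block, which called 0.387%. Averaged over the 14 genes, log2(FPKM + 1) lay 1.39 and 1.59 above the wild-type 90 min mean in the wild-type 6 h libraries, and 0.31 above it in the GdX-deficient 6 h library. For the 9 luminal chaperones the same quantity was -0.39 and -0.42 in wild type at 6 h, and 0.04 in the GdX-deficient library.

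**Figure D4:**
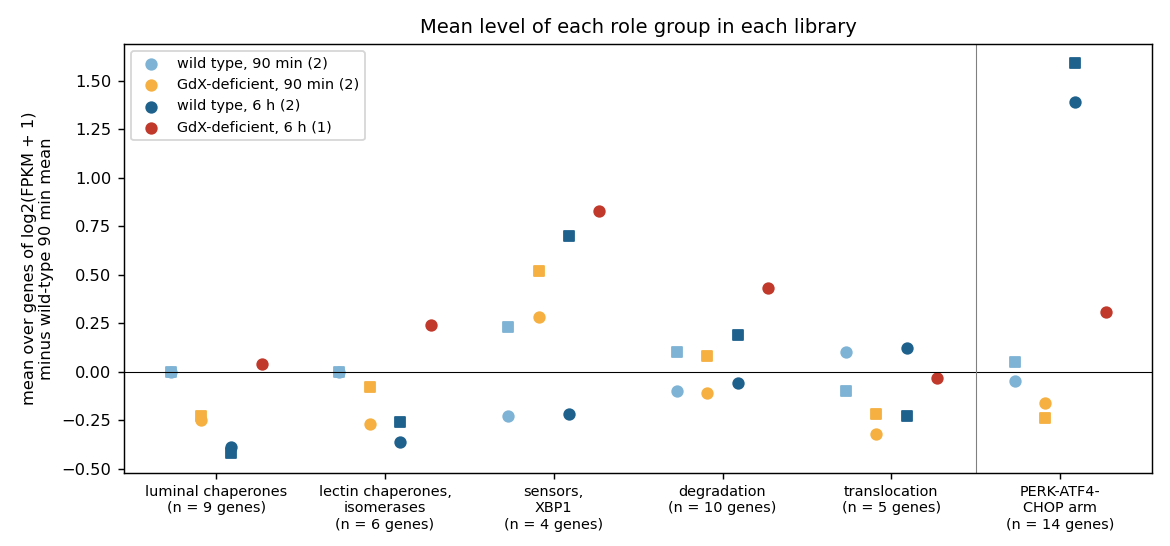
Mean over the genes of each role of log2(FPKM + 1) minus the wild-type 90 min mean, for each library. Points are libraries, with replicate 1 as a circle and replicate 2 as a square; in the wild-type libraries at 6 h the luminal chaperones lie at -0.39 and -0.42 and the ATF4 programme at 1.39 and 1.59, against 0.04 and 0.31 in the GdX-deficient 6 h library.

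Within GdX-deficient spleen the 6 h library stood above both 90 min libraries for most of the genes. P4hb stood at 45.1 and 51.9 FPKM at 90 min and at 84.6 at 6 h. Herpud1 stood at 31.2 and 37.4 at 90 min and at 60.9 at 6 h. Derl1, a channel-forming derlin, stood at 27.7 and 30.9 at 90 min and at 44.3 at 6 h. Hspa5, at 422 and 296 against 287, and Dnajb9, the BiP co-chaperone ERdj4, at 20.3 and 18.5 against 17.9, stood below both. Hsp90b1 (203 and 264 against 235), Sec11c (83.2 and 104 against 93.6) and Syvn1 (35.3 and 62.9 against 59.6) lay between the 90 min values.

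By limma 0 of the 34 genes were called over time in GdX-deficient spleen, beside 0% of all genes, and 2 had an unadjusted p below 0.05, as did 910 of all 11378 genes. The 2 of the 34 were P4hb, with a log2 difference of 0.79 ± 0.29 (SE, adjusted p = 0.484), and Herpud1, at 0.82 ± 0.31 (adjusted p = 0.496). Derl1 had 0.58 ± 0.30, Vcp 0.54 ± 0.29, Creld2 0.60 ± 0.35 and Eif2ak3 0.87 ± 0.52, with limma adjusted p from 0.721 to 0.761. Without overlap, 29 genes were higher at 6 h, where 56.8% of all genes were, and 2 were lower, where 15.8% were. The median was 0.41 over the 34 genes and 0.25 over all genes. All 10 degradation genes had a positive difference, as did 8542 of the 11378 genes tested, and theirs ran from 0.22 to 0.82. Quantile normalization moved the medians to 0.27 and 0.02, with 23 genes higher and 2 lower, where 35.1% and 32.5% of all genes were. Over the same interval in GdX-deficient spleen the red cell precursor markers summed to 1370 and 1171 FPKM at 90 min and to 690 at 6 h, and the globin genes held 30.9% and 23.5% of all FPKM at 90 min and 13.6% at 6 h. Their part in the time course was not tested.

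The 2 time courses differed in direction for 8 genes: Calr, Creld2, Dnajc3, Pdia3, Pdia4, Pdia6, Sdf2l1 and Xbp1. In each of them both wild-type libraries at 6 h lay below both at 90 min, and the GdX-deficient 6 h library lay above both at 90 min. That pattern was found in 8.31% of all genes, and the reverse pattern in 0.835% of all genes and in 0 of the 34. The count depended on the scaling. With globin genes removed it was 7, beside 7.44% of all genes, with Calr and Xbp1 no longer among them and Derl3 added. With quantile normalization it was 10, beside 4.67% of all genes, with Dnajb11 and Os9 added. With the trend on transcript length and GC content removed it was 9, beside 9.72%, with Sel1l added. B-cell markers in GdX-deficient spleen summed to 1448 and 2456 FPKM at 90 min and to 2093 at 6 h, and plasma cell markers to 690 and 849 at 90 min and to 689 at 6 h. The 6 h B-cell sum lay between the 90 min values and the plasma cell sum just under both. The test of their difference in limma called 0 of the 34, beside 0.0703% of all genes, and 5 had an unadjusted p below 0.05, as did 1136 of all 11378 genes. The difference between the time courses was 1.14 ± 0.40 (SE, adjusted p = 0.35) for Calr, 1.07 ± 0.45 (0.472) for Creld2, 1.12 ± 0.47 (0.472) for Dnajc3, 1.15 ± 0.50 (0.486) for Hsp90b1, 1.01 ± 0.45 (0.501) for Xbp1 and 1.06 ± 0.49 (0.536) for Pdia4. All 15 chaperones and isomerases had a positive difference between time courses, as did 7306 of the 11378 genes tested. The median was 0.53 over the 34 genes and 0.19 over all genes. In the ATF4 programme Trib3 was called in this test, with -3.59 ± 0.43 (limma adjusted p = 0.043), a call lost without GdX-deficient 90 min replicate 1 (0.221) or 2 (0.136). It was also lost with a pseudocount of 0.1 (0.094), no filter (0.0826), a stricter filter at 5 FPKM (0.0777), globin genes removed (0.11) and the crossed block (0.139).

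Over both times, Pdia4 and Ern1 were the genes that stood higher in every GdX-deficient library than in every wild-type library of the same time, where 19.0% of all genes did. Hspa5, Spcs2, Ssr1 and Vcp stood lower at both times, where 13.0% of all genes did. With globin genes removed, 5 genes stood higher at both times (Edem1, Eif2ak3, Ern1, Pdia4 and Syvn1) and 0 lower, where 33.0% and 5.88% of all genes did. With quantile normalization the higher genes were Edem1, Eif2ak3, Pdia4 and Syvn1 and the lower ones Dnajb9 and Ssr1, where 17.2% and 16.4% of all genes did. With the trend on transcript length and GC content removed, Pdia4 and Sdf2l1 stood higher and Derl1, P4hb, Ssr1 and Vcp lower, where 17.3% and 11.2% of all genes did. Pdia4 was higher at both times under each of these scalings. In the limma fit of genotype with time as a covariate, 3 GdX-deficient against 4 wild-type libraries, 0 of the 34 genes were called, beside 0.0439% of all genes, and 3 had an unadjusted p below 0.05, as did 3071 of all 11378 genes. Pdia4 had a log2 difference of 0.99 ± 0.29 (SE, adjusted p = 0.106), Syvn1 of 0.93 ± 0.29 (0.109), Eif2ak3 of 0.90 ± 0.33 (0.128), Ern1 of 0.69 ± 0.31 (0.186), Dnajc3 of 0.54 ± 0.28 (0.239) and Xbp1 of 0.50 ± 0.27 (0.244). Without GdX-deficient 90 min replicate 1 the count was 3, namely Eif2ak3, Pdia4 and Syvn1, in a fit that called 14.7% of all genes.

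Canx, the membrane-bound lectin chaperone, stood at 77.7 and 82.0 FPKM in wild type and 63.0 and 65.3 in GdX-deficient spleen at 90 min, and at 67.7 and 85.1 in wild type and 83.0 in GdX-deficient spleen at 6 h. Hyou1, which exchanges nucleotide on BiP, ranged from 19.0 to 33.5 over the 7 libraries, and Dnajb11, a co-chaperone of BiP, from 41.03 to 59.85. The highest value of both came from the GdX-deficient 6 h library.

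Among the degradation genes, that library also held the highest values of Edem1 (31.6 FPKM) and Edem2 (27.04), which trim glycans, of the lectin Os9 (42.6) and of Derl3 (9.27). In the other 6 libraries Edem1 ranged from 16.8 to 26.9, Edem2 from 20.4 to 24.5, Os9 from 27.3 to 35.0 and Derl3 from 5.39 to 7.80. Derl2 ranged from 9.51 to 16.7, with its highest value in wild type at 6 h. Of the translocation genes, Sec61a1, the channel itself, ranged from 34.8 to 65.6, and Spcs2, a signal peptidase subunit, from 62.2 to 118. Ssr1 stood at 24.7 and 24.0 in wild type and 18.6 and 20.9 in GdX-deficient spleen at 90 min, and at 31.7 and 29.9 against 28.3 at 6 h. None of the 5 translocation genes had its highest value in the GdX-deficient 6 h library.

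Other genes of the same pathways, outside the 34, were tested as 4 lists. Among 20 further ER folding genes, 1 was called, Pdia5, a disulfide isomerase, which fell in wild type from 4.29 and 4.31 FPKM at 90 min to 1.13 and 0.91 at 6 h (log2 difference -1.39 ± 0.26, limma adjusted p = 0.0138), in the comparison where limma called 10.7% of all genes. That call was lost without wild-type 90 min replicate 1 (adjusted p = 0.0671) or 2 (0.064). Among 20 further degradation genes, 20 further genes of translocation, signal peptidase and glycosylation, and 18 genes of transport from the ER to the Golgi, limma called 0 in each of the 6 comparisons. At an unadjusted p below 0.05 the folding list held 7 genes over time in wild type, against 3262 of all 11378 genes. Between genotypes at 6 h it held 5, against 3233. The other 3 lists held 0 to 3 genes in each comparison, where from 862 to 3262 of all genes passed. The median time difference in wild type was -0.28 for the folding genes, 0.20 for the degradation genes, 0.21 for the translocation genes and 0.17 for the transport genes.

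The wild-type replicates differed for the 34 genes along transcript length. The SD of the difference between replicates, in log2(FPKM + 1), was 0.35 at 90 min in either genotype and 0.55 in wild type at 6 h. In wild type at 6 h longer transcripts tended to stand lower in replicate 1 and shorter ones higher: Atf6 at 10.8 against 26.1 FPKM, Ern1 at 0.33 against 2.26, and Sec61b at 246 against 124. Ssr1, with the longest transcript of the 34, was an exception at 31.7 against 29.9. Across the 34 genes the Spearman correlation of that difference with transcript length was -0.60, and across 11180 genes it was -0.59. It was -0.38 for the 34 in wild type at 90 min and -0.08 in GdX-deficient spleen. These correlations describe genes of the same pair of libraries. Over the 11180 genes the GdX-deficient libraries leaned most towards longer transcripts. The Spearman correlation of a library's deviation from the gene mean with length was 0.258 and 0.314 in GdX-deficient spleen at 90 min and 0.326 at 6 h. In wild type it was -0.369 and 0.043 at 90 min and -0.420 and 0.088 at 6 h. Across the 34 genes it was -0.033, 0.052 and 0.104 in GdX-deficient spleen and from -0.469 to 0.615 in wild type. Its part in the genotype differences was not tested. When the trend on transcript length and GC content was removed from every library, limma called 4 of the 34 over time in wild type (Atf6, Calr, Hsp90b1 and Sec11c), beside 18.0% of all genes. It called 4 between genotypes at 6 h (Calr, Pdia4, Sdf2l1 and Sec11c), beside 9.22% of all genes.

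**Figure D5:**
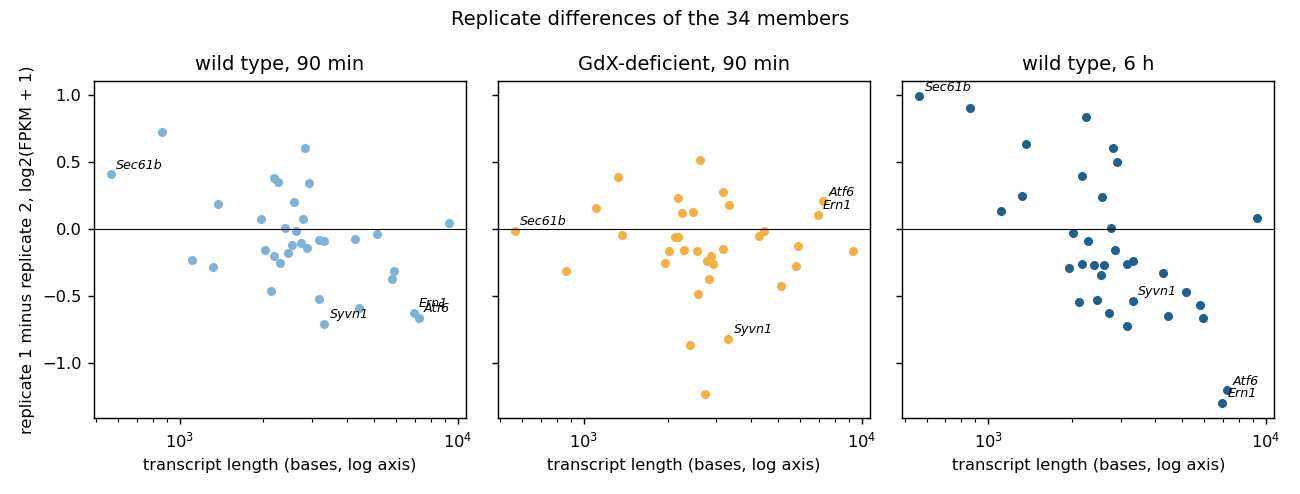
Replicate 1 minus replicate 2 in log2(FPKM + 1) against transcript length in bases (log axis) for the 34 genes, 1 panel for each group with 2 libraries. In wild type at 6 h the points slope down with length (Spearman correlation -0.60), with Sec61b highest and Ern1 and Atf6 lowest.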

How the data were processed

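Per the file headers, the authors deposited 1 column of FPKM values for each library, with 2 decimals. The submitters' processing notes name HISAT, HISAT2 2.0.4, Bowtie2, RSEM and GRCm38.p5, without their roles. The labels leave poly(A) selection or rRNA depletion unspecified. The table holds no counts, so the planned count alternatives were not run. Depth was estimated from the step of low FPKM values.

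The 34 genes and all lists were chosen with earlier results of these data known. Genes whose FPKM averaged at least 1 (11378) entered as log2(FPKM + 1) and were fitted with limma 3.58.1 in R 4.3.3 (empirical Bayes with a trend). The 4 groups gave 5 contrasts, and an additive fit of genotype and time a sixth. P-values are two-sided, adjusted by Benjamini-Hochberg over all genes, with a threshold of 0.05. Fold changes on this scale understate low genes. Statistics are given for called genes, or for the 6 with the smallest p where fewer than 6 passed, and for at most 3 called genes per pathway list.

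Tested on simulated data in which 200 genes differed by a log2 value of 2, the fits recovered 59.5% (genotype at 90 min), 75% (time in wild type), 26.5% (genotype at 6 h), 31.5% (time in GdX-deficient spleen), 0% (difference between time courses) and 91% (genotype with time as a covariate) of them among 11378 genes. The replicate block was kept as an alternative, since the labels state no pairing and the correlation of equal-numbered deviations was 0.768 between the wild-type times, -0.120 between genotypes at 90 min and 0.080 between GdX-deficient 90 min and wild-type 6 h. Alternatives were a pseudocount of 0.1, no filter or a stricter one at 5 FPKM, quantile normalization, globin removal, a replicate block, the compared libraries alone, each library left out and, chosen after seeing the data, removal of the trend on length and GC content and a crossed block.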

Additional observations from a re-analysis of the deposited data

Results flagged for a closer look

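In 8 of the 34 genes, a pattern found in 8.31% of all genes, both wild-type libraries stood lower at 6 h than at 90 min without overlap, while the GdX-deficient library at 6 h lay above both GdX-deficient libraries at 90 min. The difference between the 2 time courses, in log2(FPKM + 1), was 1.14 for Calr (limma adjusted p = 0.35), 1.12 for Dnajc3 (0.472), 1.07 for Creld2 (0.472), 1.06 for Pdia4 (0.536), 1.01 for Xbp1 (0.501), 0.83 for Sdf2l1 (0.561), 0.76 for Pdia6 (0.612) and 0.52 for Pdia3 (0.74). The test of the difference called 0 of them. In the simulated data it recovered 0% of genes changed by 2 on that scale. The B-cell and plasma cell marker sums were lower in wild type at 6 h than at 90 min. In GdX-deficient spleen the B-cell sum at 6 h lay between the 90 min values and the plasma cell sum just under both. Their part was not tested. With globin genes removed the count was 7, without Calr and Xbp1 and with Derl3. All 8 rest on 1 GdX-deficient library at 6 h.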

How the results depend on the processing

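Of 650 recomputed values of the genes named with a test, 0 changed direction, 597 stayed on their side of the threshold, 33 passed it only under the alternative and 20 no longer passed. Between 90 min and 6 h in wild type, where 1 of the 34 genes was called, the count was 0 with no filter and with the 4 libraries alone, 2 with quantile normalization (Calr and Hsp90b1), 2 with globin genes removed, 4 with the trend on length and GC content removed, and from 0 to 3 with 1 library left out. The share of all genes called was 3.54%, 9.59%, 12%, 6.22% and 18.0% in that order and, with 1 library left out, from 3.96% to 15.6%. Between genotypes at 6 h, where 0 were called, it was 4 with that trend removed (9.22% of all genes) and from 1 to 7 with 1 library left out (5.51% to 26.7%). For genotype with time as a covariate it ran from 0 to 3 with 1 library left out (0.0176% to 14.7%).

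With the replicate block the count was 3 over time in wild type (20.6% of all genes) and 6 between genotypes at 6 h (29.7%), and 3 (13.0%) and 0 (0.387%) with the GdX-deficient 90 min numbers crossed. Equal numbers deviated together between the wild-type times (correlation 0.768) but not between the genotypes at 90 min (-0.120), so whether the numbers mark a pairing is not settled. The median difference of the 34 genes changed sign between genotypes at 90 min with globin genes removed (0.04 in place of -0.15). With time as a covariate the median of the 34 genes was -0.01 with the crossed block. With 1 library left out it ran from -0.15, without GdX-deficient 6 h replicate 1, to 0.14, without GdX-deficient 90 min replicate 1. Removal of globin genes moved the median in that fit from 0.05 to 0.28 for the 9 genes with an ERSE. For the 19 genes whose promoter held none it moved from 0.13 to 0.36. The causes of these changes were not tested. Genotype at 6 h, time in GdX-deficient spleen and the difference between time courses have no value without the single GdX-deficient library at 6 h. Depth limits Ern1 most, at 46.3 fragments in its lowest library.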
